A study of Rattus norvegicus with 2 samples.

Results

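Heme is the iron-containing ring of hemoglobin, cytochromes and many oxidases. It is built in a chain of enzymes that starts with the aminolevulinate synthases (*Alas1*, *Alas2*) and ends when ferrochelatase (*Fech*) inserts iron, with coproporphyrinogen oxidase (*Cpox*) in between. Heme oxygenases (*Hmox1*, *Hmox2*) open the ring and release iron, carbon monoxide and biliverdin, which the biliverdin reductases (*Blvra*, *Blvrb*) turn into bilirubin. The iron set free is held in ferritin, a shell of heavy (*Fth1*) and light (*Ftl1*) chains. In many cell types *Hmox1* is the inducible enzyme, raised by oxidants and by heme itself, whereas *Hmox2* is made at a steady level.

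These 10 genes were read in lens epithelial cells (LECs) of the Shumiya cataract rat (SCR), a strain with hereditary cataract. They were chosen by their place in the pathway and with the low *Hmox1* ratio of these same arrays already known, so the *Hmox1* difference is a description and no support for itself. A probe set of the array names 8 of the 10 genes alone, among 18166 genes with a value, and these 8 have 9 probe sets because *Fth1* has 2. *Alas1* and *Alas2* are not named by the platform annotation used here and were not analysed, so the first step of heme synthesis has no value.

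The study compared 1 array from a Cat- sample with 1 array from a Cat+ sample, both from SCRs at 5 weeks of age. Cat- rats had the *Lss* s/s genotype at the locus of lanosterol synthase, an enzyme of cholesterol synthesis, and their lenses stay clear. Cat+ rats had the *Lss* s/l genotype and already show a mild opacity at this age. The s allele is thus shared by both conditions. The strain also carries mutant alleles of the squalene synthase gene *Fdft1*, and the *Fdft1* genotype of the 2 samples is not given in the sources used here, nor is which of a regular or an experimental chow each rat ate. Each RNA came from the lens capsules, with the LECs on them, of 2 eyes. With 1 array per condition there are no replicates, so the spread between animals is unknown and no test was run.

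The authors deposited normalized log2 signals for 29870 probe sets. Each gene is given by its log2 difference Cat+ minus Cat- or by the same difference as a ratio, and the study counted a gene as changed at a ratio under 0.5 or over 2. How precise a value is depends on the number of arrays. As a yardstick, 291 genes have more than 1 probe set, and the log2 differences of probe sets for 1 gene had an SD of 0.17. This SD covers probe sets and not animals or repeat arrays. Probe sets with identical values, such as the 2 of *Rhag*, were kept and make it smaller. The median log2 signal of all probe sets was 5.67 in Cat- against 5.69 in Cat+, and the middle 98% of genes had ratios from 0.668 to 1.35. The table has no detection calls. *Lss* itself was at a ratio of 1.02 and *Fdft1* at 0.870.

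*Hmox1*, the inducible heme oxygenase, stood apart from the other heme and ferritin genes. The log2 signal read 7.59 in Cat- against 5.80 in Cat+. The Cat+ value lay 0.12 above the array's own median, whereas the Cat- value was well clear of it. The log2 difference was -1.79 and the ratio 0.289, a signal 3.46-fold lower in Cat+, and 18 of the 18166 genes had a lower ratio. Among the 8 measured genes *Hmox1* was the only 1 with a ratio under 0.5, a size reached by 0.308% of all genes, and none had a ratio over 2, which 0.0055% of all genes did. A single probe set reads *Hmox1*, so no second probe set checks this value.

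**Figure D1:**
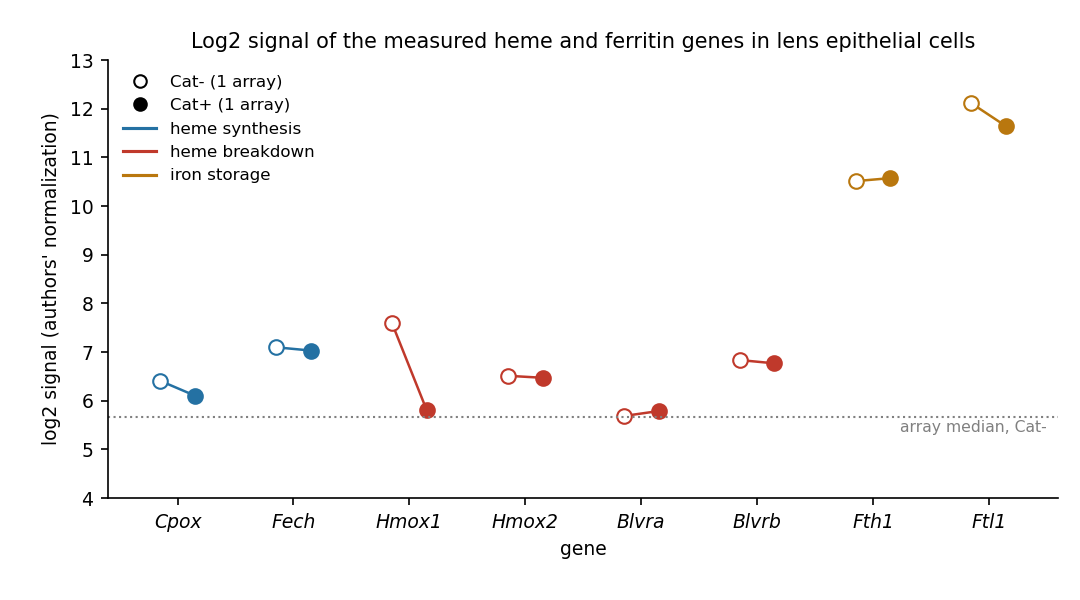
Log2 signal of the 8 measured heme and ferritin genes, with an open circle for the Cat- array and a filled circle for the Cat+ array of each gene. Colours mark heme synthesis, heme breakdown and iron storage, the dotted line is the Cat- median of 5.67, and heights can be compared within a gene only. *Hmox1* goes from 7.59 to 5.80 and *Ftl1* from 12.11 to 11.64, while *Hmox2*, *Blvra*, *Blvrb*, *Fech* and *Fth1* change by less than 0.17.

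The rest of the breakdown route showed no difference of that kind. *Hmox2*, the constitutive heme oxygenase, had a log2 signal of 6.51 in Cat- against 6.47 in Cat+, a ratio of 0.972. The log2 differences of the 2 heme oxygenases were therefore -1.79 and -0.04. *Blvra*, the biliverdin reductase that makes bilirubin from the main form of biliverdin, gave 5.68 in Cat- against 5.79 in Cat+ on the log2 scale, a ratio of 1.07. Both of these signals lie close to the array medians. *Blvrb*, a reductase of flavins that also acts on a minor form of biliverdin, gave 6.83 in Cat- against 6.77 in Cat+, a ratio of 0.954. All 3 differences were smaller than the yardstick of 0.17.

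Among the 2 ferritin chains *Ftl1* was lower in Cat+ and *Fth1* was nearly level. *Ftl1*, the light chain that helps form the iron core, had a log2 signal of 12.11 in Cat- against 11.64 in Cat+. Its log2 difference was -0.47 and its ratio 0.720, with 319 of the 18166 genes lower. *Fth1*, the heavy chain with the ferroxidase site, had log2 signals of 10.51 and 10.57 by its brighter probe set, a ratio of 1.04. The other *Fth1* probe set gave 10.27 in Cat- against 10.41 in Cat+, a log2 difference of 0.14, so both probe sets were slightly higher in Cat+. The *Ftl1* difference was larger than that yardstick, and neither *Fth1* difference was. The *Ftl1* signals lie near the highest value of either array, 12.50 in Cat- against 12.56 in Cat+, and saturation of its probes was not measured. Ferritin genes have close copies in the genome, and 1 other protein-coding locus of the RefSeq table carries *Ftl1* as a synonym. How far the *Ftl1* and *Fth1* probes read such copies was not measured.

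Of the heme synthesis enzymes, *Cpox* was lower and *Fech* was nearly level. *Cpox*, which converts coproporphyrinogen to protoporphyrinogen in mitochondria, had a log2 signal of 6.41 in Cat- against 6.10 in Cat+, a ratio of 0.809. For *Fech* the log2 signal was 7.10 in Cat- against 7.03 in Cat+, a ratio of 0.955. In the whole route, 6 of 9 listed enzymes were measured, 4 of them lower and 2 higher in Cat+. *Alad*, which joins aminolevulinate into porphobilinogen near the start, went from 8.58 to 8.87 on the log2 scale, a ratio of 1.23. *Uros*, which closes the ring as uroporphyrinogen III, went from 7.27 to 6.99, a ratio of 0.820. The next enzyme, *Urod*, had a ratio of 0.931, and *Ppox*, which works between *Cpox* and *Fech*, a ratio of 1.15. The route thus held differences of either sign at neighbouring steps, with a median ratio of 0.943, and no enzyme past the size rule.

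**Figure D2:**
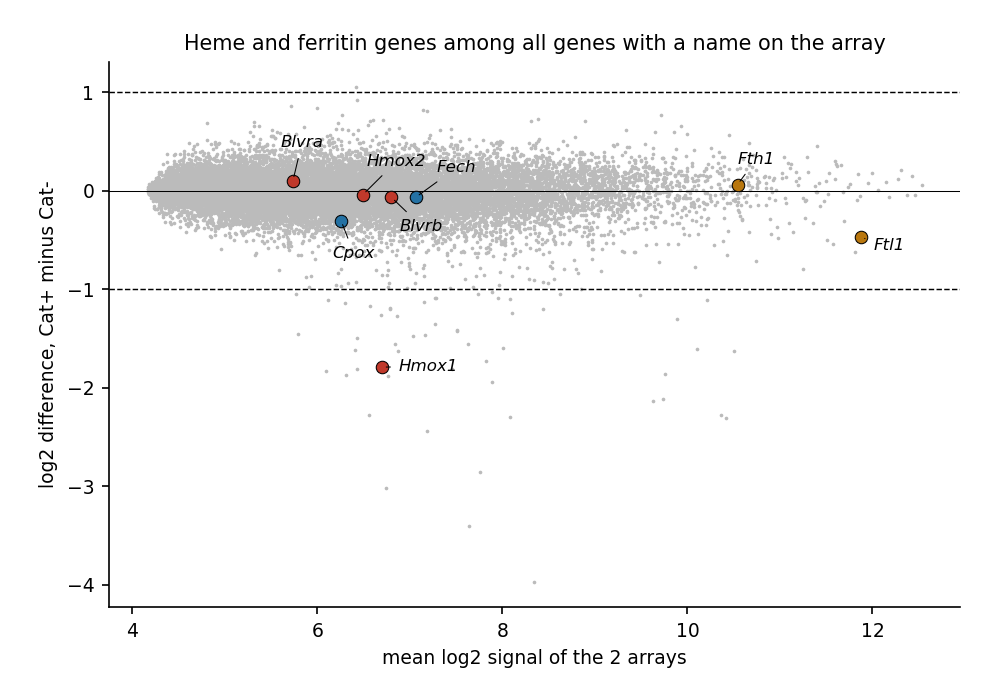
Log2 difference Cat+ minus Cat- (y axis) against the mean log2 signal of the 2 arrays (x axis) for 18166 genes in grey, with heme synthesis in blue, heme breakdown in red and iron storage in ochre. Dashed lines mark ratios of 0.5 and 2: *Hmox1* at -1.79 lies below the lower line, *Ftl1* at -0.47 and *Cpox* at -0.31 lie between it and 0, and the other 5 genes sit within the dense band.

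Of the 8 measured genes, 6 were lower in Cat+, as were 51.2% of all genes, and their median ratio of 0.954 compares with 0.997 over all genes. A smaller fold of 1.2 was passed by 3 of the 8, *Hmox1*, *Ftl1* and *Cpox*, each in the direction of lower signal in Cat+. Over all genes 8.33% were lower by that fold and 6.01% higher. Without *Hmox1* the median ratio of the other 7 was 0.955, and the lowest of them was *Ftl1* at 0.720. The curve of log2 difference on signal, which shows any drift with brightness, stood at 0.063 at the signal of *Ftl1* and between -0.009 and 0.039 at the signals of the other 7, smaller than the differences of *Hmox1*, *Ftl1* and *Cpox*.

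A wider set of 104 genes of heme and iron metabolism in 9 lists by role, 92 of them measured, places these values in their pathways. *Hmox1* was the only gene of the 92 with a ratio under 0.5 and none had a ratio over 2. Of the 92 genes, 15 were lower by more than 1.2-fold and 6 higher, 16.3% and 6.52%, against the 8.33% and 6.01% of all genes. The median ratio over the 92 was 0.968. The next lowest after *Hmox1* were 2 genes of iron-sulfur cluster assembly, *Fdx2* and *Nfu1*, the only others below 1 over 1.5, a size reached by 0.991% of all genes.

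Iron-sulfur clusters are built in mitochondria from iron and cysteine sulfur, the other main use of iron there besides heme. *Fdx2*, the ferredoxin that supplies electrons to this assembly, had a log2 signal of 9.13 in Cat- against 8.42 in Cat+, a ratio of 0.615. *Nfu1*, a late-acting carrier of clusters, went from 9.37 to 8.78, a ratio of 0.664, and *Isca2*, which helps form the larger clusters, from 8.91 to 8.38, a ratio of 0.692. *Ciao2b*, of the cytosolic branch, had a ratio of 0.835. The other members of the list were nearer to 1, up to *Fdx1*, the ferredoxin of steroid-making enzymes, at 1.18. Of the 13 measured genes 8 were lower and 5 higher, and the median ratio was 0.965. By more than 1.2-fold 3 were lower, 23.1%, against 8.33% of all genes.

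In the list of heme transport and binding, 11 of 16 genes were lower and 5 higher, and the median ratio was 0.911. By more than 1.2-fold 4 were lower and 1 higher, 25% and 6.25%, against 8.33% and 6.01% of all genes. *Slc25a39*, which brings glutathione into mitochondria, had log2 signals of 7.48 in Cat- against 6.99 in Cat+, a ratio of 0.715. *Slc25a38*, which carries glycine for the first step of heme synthesis, went from 7.35 to 6.93, a ratio of 0.744. *Slc48a1*, which moves heme out of endosomes and lysosomes, had a ratio of 0.804. The highest gene of that list was *Pgrmc1*, a heme-binding membrane protein, which went from 8.79 to 9.16, a ratio of 1.29.

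**Figure D3:**
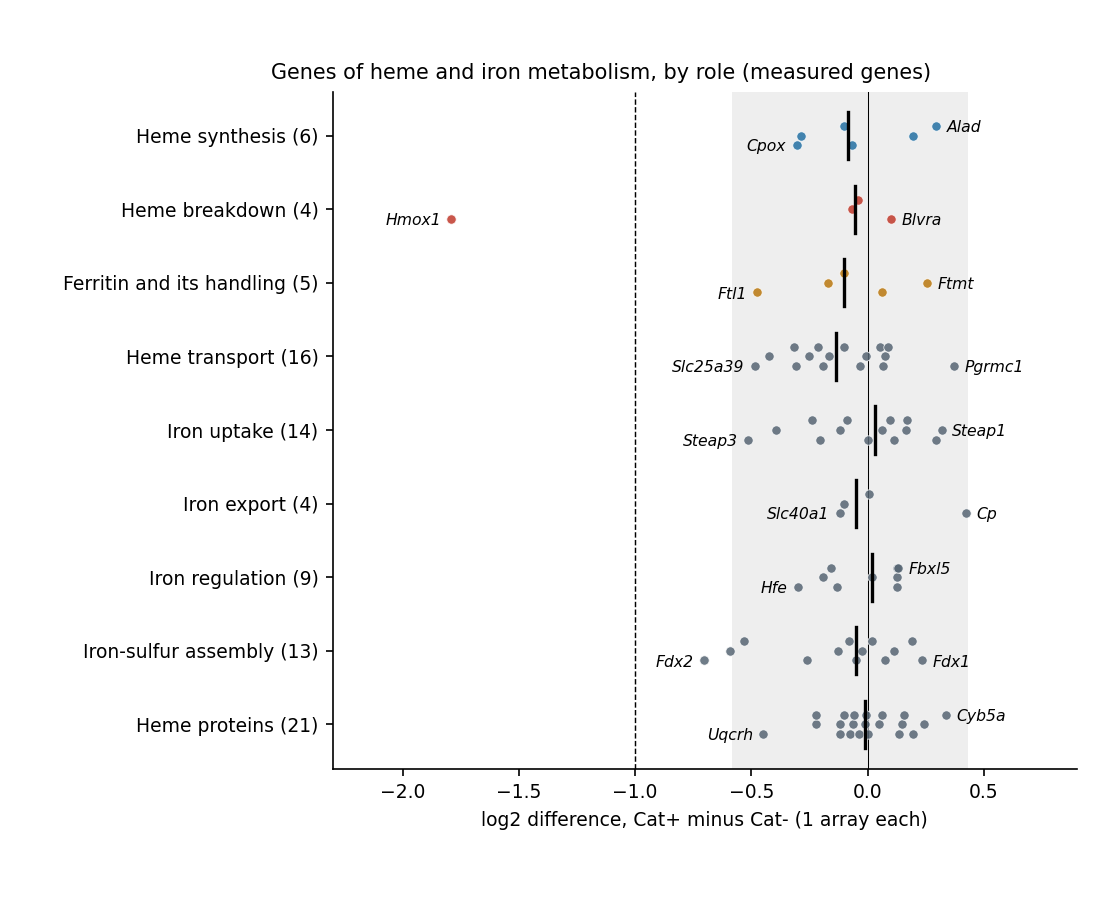
Log2 difference Cat+ minus Cat- of each measured gene (points) in 9 lists of heme and iron metabolism, with the number measured in brackets, the median as a black bar and the lowest and highest gene named. The grey band holds the middle 98% of all genes and the dashed line is a ratio of 0.5, which only *Hmox1* passes; *Fdx2* and *Nfu1* are the other genes left of the band.

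Genes for iron uptake differed in either direction, with 6 of 14 lower and 8 higher and a median ratio of 1.02. By more than 1.2-fold 2 were lower and 2 higher, 14.3% each, against 8.33% and 6.01% of all genes. *Steap3*, the reductase that works on iron released from transferrin in endosomes, had log2 signals of 6.74 in Cat- against 6.23 in Cat+, a ratio of 0.700. *Slc25a28*, the mitochondrial iron carrier mitoferrin 2, went from 6.91 to 6.52, a ratio of 0.762. The other mitoferrin gene, *Slc25a37*, was at 5.58 and 5.59, under the array medians, a log2 difference of 0.0028. *Steap1*, of the same family as *Steap3*, went from 8.67 to 8.99, a ratio of 1.25, and *Slc11a1*, an iron and manganese transporter of phagocytes, from 6.73 to 7.02, a ratio of 1.23. The transferrin receptor gene *Tfrc* was at 1.04. *Slc25a37* and *Tfrc* were picked after their values were seen.

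Of the 4 genes of iron export, *Cp*, the ferroxidase ceruloplasmin, had log2 signals of 9.67 and 10.09 and the highest ratio of the 92 genes, 1.34. *Slc40a1*, the iron exporter ferroportin, was dim in both arrays at 5.38 and 5.26, under the array medians, with a ratio of 0.921. Of 9 measured genes of iron sensing and regulation, 4 were lower and 5 higher, and the median ratio was 1.01. By more than 1.2-fold 1 was lower, 11.1%, against 8.33% of all genes. The lowest were *Hfe*, a partner of the transferrin receptors, at 0.812, *Bmp6*, a ligand that raises hepcidin in the liver, at 0.875, *Hamp*, hepcidin itself, at 0.897, and *Tmprss6*, a protease that holds hepcidin down, at 0.913. *Hamp* and *Tmprss6* had signals under the array medians. The highest was *Fbxl5*, which marks the iron regulatory protein of *Ireb2* for degradation, at 1.09. The iron regulatory proteins *Aco1* and *Ireb2*, picked after their values were seen, were each at 1.09.

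Ferritin handling genes had ratios between those of *Ftl1* and of mitochondrial ferritin. *Ncoa4*, the receptor that brings ferritin to autophagy, had log2 signals of 8.78 in Cat- against 8.61 in Cat+, a ratio of 0.890. *Pcbp1*, which loads iron into ferritin, had a ratio of 0.931. *Ftmt*, the mitochondrial ferritin, was at 5.92 and 6.17, a log2 difference of 0.26. A list of 21 genes of heme proteins and their assembly had 12 lower and 9 higher, with a median ratio of 0.992. Its lowest gene, *Uqcrh* at 0.732, encodes a subunit of complex III that holds no heme itself and sits beside the heme-bearing cytochrome c1. *Mb*, the heme protein myoglobin, came next at 0.857. *Cyb5a*, a cytochrome of the endoplasmic reticulum, was highest at 1.26, and *Cat*, the heme enzyme catalase that breaks down hydrogen peroxide, was at 1.18. *Cyp51*, the heme enzyme of cholesterol synthesis that acts on the lanosterol made by *Lss*, had a ratio of 0.975 and was picked after its value was seen.

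Transcription factors with a known action on *Hmox1* split in both directions. *Hsf4*, the lens heat shock factor, went from a log2 signal of 7.71 with Cat- to 6.59 with Cat+, a ratio of 0.458. It was the only 1 of the 11 under a ratio of 0.5, a size reached by 0.308% of all genes. The study had already named *Hsf4* as reduced on these same arrays, so its low ratio is no separate finding. *Nfe2l2*, which encodes NRF2, the main activator of *Hmox1* under oxidant stress, went from 8.34 to 8.72, a ratio of 1.30. *Keap1*, the adaptor that keeps NRF2 low, went from 6.99 to 6.56, a ratio of 0.742. *Bach1*, a repressor of *Hmox1* that leaves DNA when it binds heme, went from 6.46 to 6.59, a log2 difference of 0.14, and *Bach2* was at 1.01. The small MAF partners of these factors were at 0.950 for *Maff*, 0.953 for *Mafg* and 0.908 for *Mafk*. The heat shock factors *Hsf1* and *Hsf2* were at 1.05 and 1.30, and *Hif1a*, the hypoxia factor, had a log2 difference of 0.26. These are mRNA signals and hold no measure of protein or of DNA binding.

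Among other genes induced by NRF2, 11 of the 14 measured were within 1.2-fold. By more than that fold 2 were lower and 1 higher, 14.3% and 7.14%, against 8.33% and 6.01% of all genes. Of 14 measured, 8 were lower and 6 higher, with a median ratio of 0.995 and none past the size rule. *Me1*, the malic enzyme that makes NADPH, was lowest, with log2 signals of 7.87 in Cat- against 7.25 in Cat+ and a ratio of 0.651. *Abcc1*, an exporter of glutathione conjugates, was at 0.705, *Sqstm1*, an autophagy receptor, at 0.905 and *Slc7a11*, the cystine importer, at 1.29. *Hmox1* was chosen with its ratio of 0.289 known, and only 18 of all 18166 genes were lower. That all 14 lie above it is therefore no test of a shared change.

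**Figure D4:**
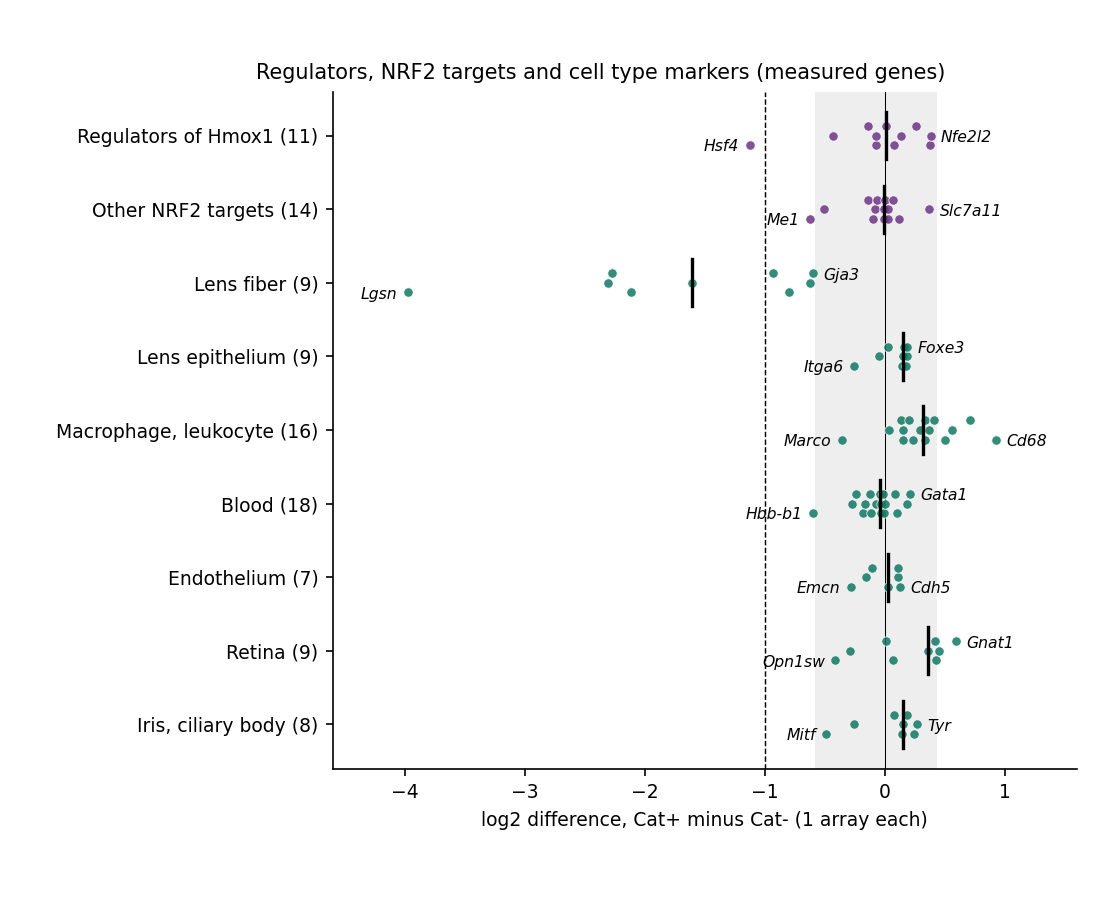
Log2 difference Cat+ minus Cat- of each measured gene (points) for regulators of *Hmox1*, other NRF2 targets and markers of 7 cell types, with the number measured in brackets, the median as a black bar and the lowest and highest gene named. The grey band holds the middle 98% of all genes and the dashed line is a ratio of 0.5; all 9 lens fiber markers lie left of 0, and 15 of 16 macrophage and leukocyte markers lie right of it.

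Markers of the cells in the samples differed between the 2 arrays as well. Over all 18166 genes 9304 were lower in Cat+ and 8862 higher. No marker is at 0 in this table, whose lowest log2 signal is 4.13 in both arrays. The 9 measured lens epithelium markers had signals above the median in both arrays, and 7 of 9 were higher in Cat+. *Foxe3* was at log2 signals of 9.53 and 9.72 and *Cdh1*, the epithelial cadherin, at 9.65 and 9.83. The lowest of them was *Itga6*, a laminin-binding integrin, at 7.52 and 7.26, a ratio of 0.838. The summed linear signal of the 9 was 14044 in Cat- and 15590 in Cat+. The brightest probe sets weigh most in this and every later sum, so a sum does not measure the amount of a cell type. Here these were *Igfbp7* and *Clu*, at log2 signals of 12.35 and 11.90 in Cat-. All 9 measured lens fiber markers had signals above the array median in Cat-. All 9 were lower in Cat+, from *Lgsn* at a ratio of 0.0636 to *Gja3* at 0.659, and *Dnase2b* at 5.42 was under the Cat+ median. Their summed linear signal was 16448 in Cat- and 6856 in Cat+, a ratio of 0.417, in a list partly made of genes that the study picked on these arrays. The 5 under a ratio of 0.5 were *Lgsn*, *Mip*, *Dnase2b*, *Bfsp1* and *Lim2*, all named as reduced by the study. Their ratios ran from 0.0636 to 0.328, and *Hmox1* at 0.289 lies within that range. *Hmox1* and these 5 were all singled out for low ratios on these same arrays, so the overlap is no evidence of a link. The other fiber markers, *Tmod1*, *Crygs*, *Grifin* and *Gja3*, ran from 0.525 to 0.659, above the *Hmox1* ratio. In bulk RNA, fewer cells of a type and less RNA per cell cannot be told apart, and the part of fiber cell RNA in the *Hmox1*, *Ftl1* and *Fdx2* values was not tested.

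Macrophages recycle heme iron and can hold much *Hmox1* and ferritin. Of 16 macrophage and leukocyte markers 15 were higher in Cat+, led by *Cd68* at a ratio of 1.90 and *Lyz2* at 1.64. *Marco* at 0.781 was lower, and the median ratio of the 16 was 1.24. The summed linear signal of the 16 was 1776 in Cat- and 2389 in Cat+. *Hmox1* and *Ftl1* were lower in Cat+, and the part of macrophages in their signals was not tested. Blood markers bear on heme synthesis, which is most active in red cell precursors. None of the 18 measured had a log2 signal above 6.42, 13 were under the median in both arrays, and their summed linear signal was 787 in Cat- and 733 in Cat+. *Hbb-b1*, a beta globin, was lowest of them, with log2 signals of 6.42 and 5.82 and a ratio of 0.659. Globin probe sets shared by more than 1 gene were not used. Of the endothelial markers 3 of 7 were lower, with sums of 378 and 370.5. Retina markers were higher in 7 of 9 cases, with sums of 1905 in Cat- and 2517 in Cat+. Their highest was *Gnat1* at a ratio of 1.51, while *Opn1sw* at 0.751 and *Crx* at 0.817 were lower. Iris and ciliary body markers were higher in 6 of 8, with sums of 1849 and 1999.7, while *Mitf* at 0.714 and *Rpe65* at 0.838 were lower. The part of these cells in the heme and iron values was not tested.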

How the data were processed

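Messenger RNA of LECs was measured on GeneChip Rat Gene ST arrays after WT Pico labelling. The authors scaled every array on its own, by a control or by its average intensity, and deposited the result as log2 signals, exported from GeneSpring. That the scale is log2 was read from the values. Background correction, probe summarization and genome build are not given in the sources used, so no coordinates are printed. Probe sets were named from the platform annotation: 18511 name 1 gene, 575 several and 10784 none. All 8 measured heme and ferritin genes matched RefSeq by gene identifier. The probe set with the higher mean signal stood for a gene. No filter, further normalization or test was applied.

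The genes and lists were chosen with earlier results of these data known. Named genes are the 10 listed ones, all measured heme synthesis genes and *Hmox1* regulators, genes beyond 1.5-fold, up to 4 largest differences per list, ends of ranges, *Lss* and *Fdft1*. For the iron export and cell type lists only some of the genes that meet this rule are named. The rule also took the 5 genes nearest to *Hmox1* in signal, which are not reported because levels of different probe sets are not comparable. Computation used pandas 2.3.3 and NumPy 2.4.6 under Python 3.11.15, with statsmodels 0.14.6 for the loess curve and matplotlib 3.10.9 for plots.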

Additional observations from a re-analysis of the deposited data

How the results depend on the processing

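The alternatives were centring each array, quantile normalization, a loess curve with a span of 0.3, a floor and a filter at the 20th percentile, a filter at the array median, averaging the probe sets of a gene or taking that with the largest difference, and other folds. For the 7 genes with 1 probe set, only the centring, quantile and loess settings altered the value, since the floor lies below their signals and the choice between probe sets does not apply. Under these the log2 difference of *Hmox1* ran from -1.80 to -1.78, of *Ftl1* from -0.54 to -0.49 and of *Cpox* from -0.32 to -0.30. That of *Fth1*, which has 2 probe sets, ran from 0.02 to 0.14, and none of the 8 genes changed sign. Both filters kept all 8 genes. With a fold of 1.5 in place of 1.2, 1 of the 8 genes passed in place of 3. With a ratio under 1 over 1.5 in place of 0.5, 3 of the 92 heme and iron genes passed in place of 1. Of all 86 values under an alternative, 55 were exactly as reported, 29 moved by less than the SD between probe sets or, for counts, by less than 1.5 times, and these 2 moved by more. No paired analysis was possible because each condition has 1 array. The number of arrays limits every value, since spread between animals was not measured.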
